A study of Mus musculus with 9 samples.

Results

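The cadherins and protocadherins were followed as a gene family in bulk RNA sequencing of mouse tumour tissue. Members were the rows whose symbol was Cdh plus a number, or began with Pcdh, whose log2 CPM exceeded 0 in 3 or more of 9 libraries. CPM is reads scaled to library size, and the values are the authors' deposited log2 values. Of 56 rows with such a symbol, the endothelial cadherin Cdh5 was left out by rule, and Cdh9, Cdh19 and Cdh26 did not reach the level, with 2, 1 and 1 libraries above 0. The remaining 52 members, of 17482 rows, were 17 cadherins and 35 protocadherins. All 52 therefore entered the tests, and 50 of them were above 0 in all 9 libraries. The other members, Cdh3 and Cdh23, were above 0 in 5 libraries each.

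The study had 3 groups of 3 libraries, from postnatal day 8 or 9, and the labels name the tissue MB. YSGr and YSGnr had the genotype fYap1;fSMO-M2;hGFAPcre and are marked as rescued and non-rescued. SG had the genotype fSMO-M2;hGFAPcre. Every group thus carried fSMO-M2, a conditional activated Smoothened that turns on Hedgehog signalling, and a Cre driven by the human GFAP promoter, which acts in neural stem and progenitor cells and their descendants, and YSGr and YSGnr carried a floxed Yap1 allele in addition. The labels define neither rescue nor sex, and do not say that libraries came from separate animals, so p-values rest on the spread within groups, pooled over all 9 libraries, part of which may be technical. Tumour tissue mixes cell types, and in such bulk samples fewer cells of a type and less RNA per cell cannot be told apart.

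Cadherins are calcium-dependent adhesion proteins that join the surfaces of neighbouring cells. The classical type I and type II cadherins bind like cadherins on the next cell and are tied to actin through catenins. Protocadherins lack the catenin-binding tail. The delta-1 and delta-2 protocadherins are separate genes that steer cell sorting, axon growth and synapse formation, whereas the clustered alpha, beta and gamma protocadherins lie side by side in the genome and are expressed in combinations that give single neurons a surface identity. In the developing cerebellum, granule neuron progenitors divide at the surface and then leave the cycle and migrate inward, and cadherins of several classes are expressed along that path.

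The libraries differed beyond their group. Yap1 itself, the targeted gene, had log2 CPM of 4.44, 3.31 and 2.79 in YSGr, 2.79, 2.57 and 1.99 in YSGnr, and 5.04, 5.11 and 5.03 in SG. It was lower in YSGr and in YSGnr than in SG, by log2 fold changes of -1.55 and -2.61 (SE 0.38, adjusted p = 0.0327 and 0.0131, limma). Effective depth, worked back from the deposited values, was 18.1 to 32.3 M (mega) reads in 8 libraries and 3.92 M reads in YSGnr replicate 1, where Yam1 and Lars2 together took 63.4% of reads against 1.98% to 8.15% elsewhere. YSGr replicate 3 stood apart from its group: over all genes its median absolute log2 difference was 0.45 and 0.47 to YSGr replicates 1 and 2, which were 0.13 apart, and over the members it was 1.08 and 0.87, against 0.17. YSGnr replicate 1 also stood apart, at 0.42 and 0.45 to YSGnr replicates 2 and 3, which were 0.20 apart. Over the members its differences were 0.47 and 0.74, against 0.33. Xist had log2 CPM of 9.81 to 10.81 in the YSGr libraries and YSGnr replicate 1 and -1.38 to -0.25 in the others. The Y-linked Ddx3y and Kdm5d were at the lowest value, -3.52, in the libraries high in Xist and at 4.76 to 5.99 in the others. This split and the YSGr against SG comparison cannot be told apart. Without YSGnr replicate 1 the same holds for YSGr against YSGnr. Granule neuron progenitor markers, all 10 in the table, summed to 2777, 2319 and 3192 CPM in YSGr, 3140 to 3417 in YSGnr and 3160 to 3284 in SG. Their median log2 fold change in YSGr against SG was -0.67, with 3 of 10 positive. At an adjusted p below 0.05 (limma), 2 were lower and 0 higher, beside 3.97% and 6.58% of all tested genes. Without YSGr replicate 3 the median was -1.23, and 7 were lower and 0 higher, beside 13.5% and 14.4%.

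Levels can be compared between genes only per length, and on the scale of log2 CPM per kilobase of the longest transcript, averaged over 9 libraries, the family spanned from 7.24 for Pcdhgc4 to -3.50 for Cdh23. Pcdhgc4, a gamma protocadherin needed for neuron survival in mice, was followed by N-cadherin (Cdh2) at 5.21, the type II cadherin Cdh20 at 4.85, Pcdha10 at 3.97 and the type II cadherin Cdh22 at 3.80. The 21 beta protocadherins lay lower, between -0.83 and 1.59 with a median of 0.29. The type I cadherins had a median of 3.46 over 5 genes and the type II cadherins of 2.39 over 10, while the 4 delta-1 and 5 delta-2 protocadherins had medians of 2.26 and 1.5. The epithelial cadherins Cdh1 (E-cadherin) and Cdh3 (P-cadherin) were near the bottom, at -1.18 and -1.84. Each of Pcdha10 and Pcdhgc4 is the single analysed row of its cluster, in which GENCODE M21 lists 14 alpha and 22 gamma genes that share their last exons. Which reads these rows hold is not given, so their levels are uncertain.

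**Figure D1:**
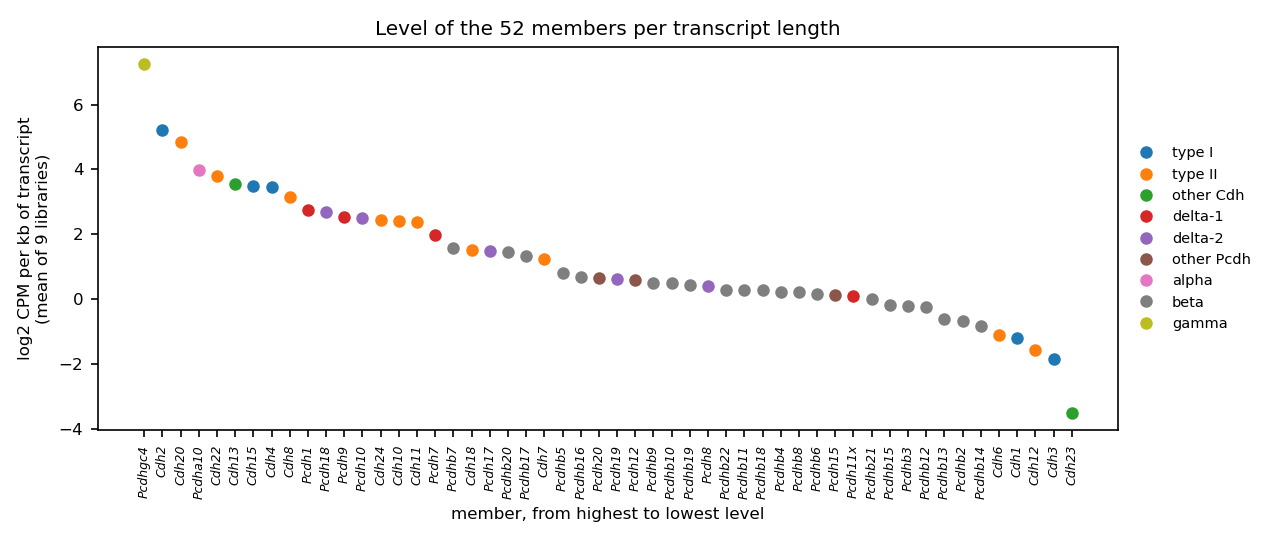
Level of each of the 52 members on the log2 CPM per kilobase scale (vertical axis, mean of 9 libraries), ordered from highest to lowest and coloured by subgroup. Pcdhgc4 leads at 7.24, Cdh2 and Cdh20 follow at 5.21 and 4.85, most beta protocadherins lie near 0, and Cdh23 is lowest at -3.50.

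YSGr was set against SG to ask how the family differed in the Yap1-floxed tumours marked rescued. Pcdh15 was the only member of 52 to be called, and it was lower. A call needed an adjusted p under 0.05 in limma, by the Benjamini-Hochberg method over 15251 tested genes. Among all tested genes, 10.5% were called. Without adjustment, 7 of the 52 had a p below that threshold, beside 26.1% of all genes. Of the members, 36 had a positive log2 fold change, with a median of 0.25 against -0.02 over all tested genes, and without YSGr replicate 3 it was 42 members with a median of 0.52. The 3 YSGr libraries lay above all SG libraries for 6 members, where 19.5% of all genes did so, and below them for 4 members, where 17.3% did so.

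Pcdh15 encodes a protocadherin of the tip links of inner ear hair cells, where it pairs with Cdh23. Its log2 CPM was 2.99, 3.09 and 2.58 in YSGr, 3.74, 2.92 and 2.81 in YSGnr, and 3.99, 3.78 and 4.06 in SG. All YSGr and all YSGnr libraries lay below the SG libraries. In YSGr against SG the log2 fold change was -1.06 (SE 0.26, adjusted p = 0.0337), a 2.08-fold lower level, and in YSGnr against SG it was -0.79 (SE 0.26, adjusted p = 0.109), so that only the first was called. The YSGr to YSGnr difference was -0.27, with a 95% interval of -0.86 to 0.32, and with the length and GC trend removed it was called at -0.69 (adjusted p = 0.0356). The call in YSGr was lost on leaving out SG replicate 1, 2 or 3 (adjusted p = 0.127, 0.0934 and 0.124) or YSGr replicate 1 or 2 (0.0979 and 0.0862), with log2 fold changes of -1.16 to -1.0 in these fits. It was kept without YSGr replicate 3, at -0.90 (adjusted p = 0.0357). Its tip-link partner Cdh23 was barely detected, with 14 to 54 reads per library in YSGr, 5 to 10 in YSGnr and 21 to 29 in SG.

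YSGnr was set against SG to ask the same of tumours marked non-rescued. No member was called, and 3.36% of all tested genes were. An unadjusted p below 0.05 in limma was found for 12 members, beside 25.6% of all genes. Only 16 of 52 members had a positive log2 fold change, and the median was -0.23 against -0.01 over all genes. With the trend of transcript length and GC content across genes removed, 25 of 52 were positive and the median was -0.03 against 0.04 over all genes. The YSGnr libraries lay below all SG libraries for 11 members, where 21.3% of all genes did so, and above them for 2 members, where 16.9% did so. The 11 were Pcdh1, Pcdh8, Pcdh10, Pcdh12, Pcdh15, Pcdh17, Pcdh19, Pcdhb15, Pcdhb19, Pcdhgc4 and Cdh11, and the 2 were Pcdh18 and Pcdhb7. The lowest adjusted p was 0.0592, for Pcdh10.

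YSGr was set against YSGnr to compare the tumours of the same genotype. The members Pcdh1 and Pcdh8 were called, and both were higher in YSGr. Over all tested genes 5.97% were called. A p below 0.05 before adjustment was found for 15 of 52 members, beside 33.9% of all genes. Of the 52, 42 had a positive log2 fold change, with a median of 0.44 against 0.01 over all genes, and without YSGr replicate 3 it was 44 members with a median of 0.78. YSGr lay above YSGnr in every library for 4 members, Pcdh1, Pcdh8, Pcdhb15 and Pcdhgc4, where 15% of all genes did so, and below it for 0 members, where 7.46% did so. The comparisons with SG share the SG libraries, and both comparisons with YSGr share the YSGr libraries.

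**Figure D2:**
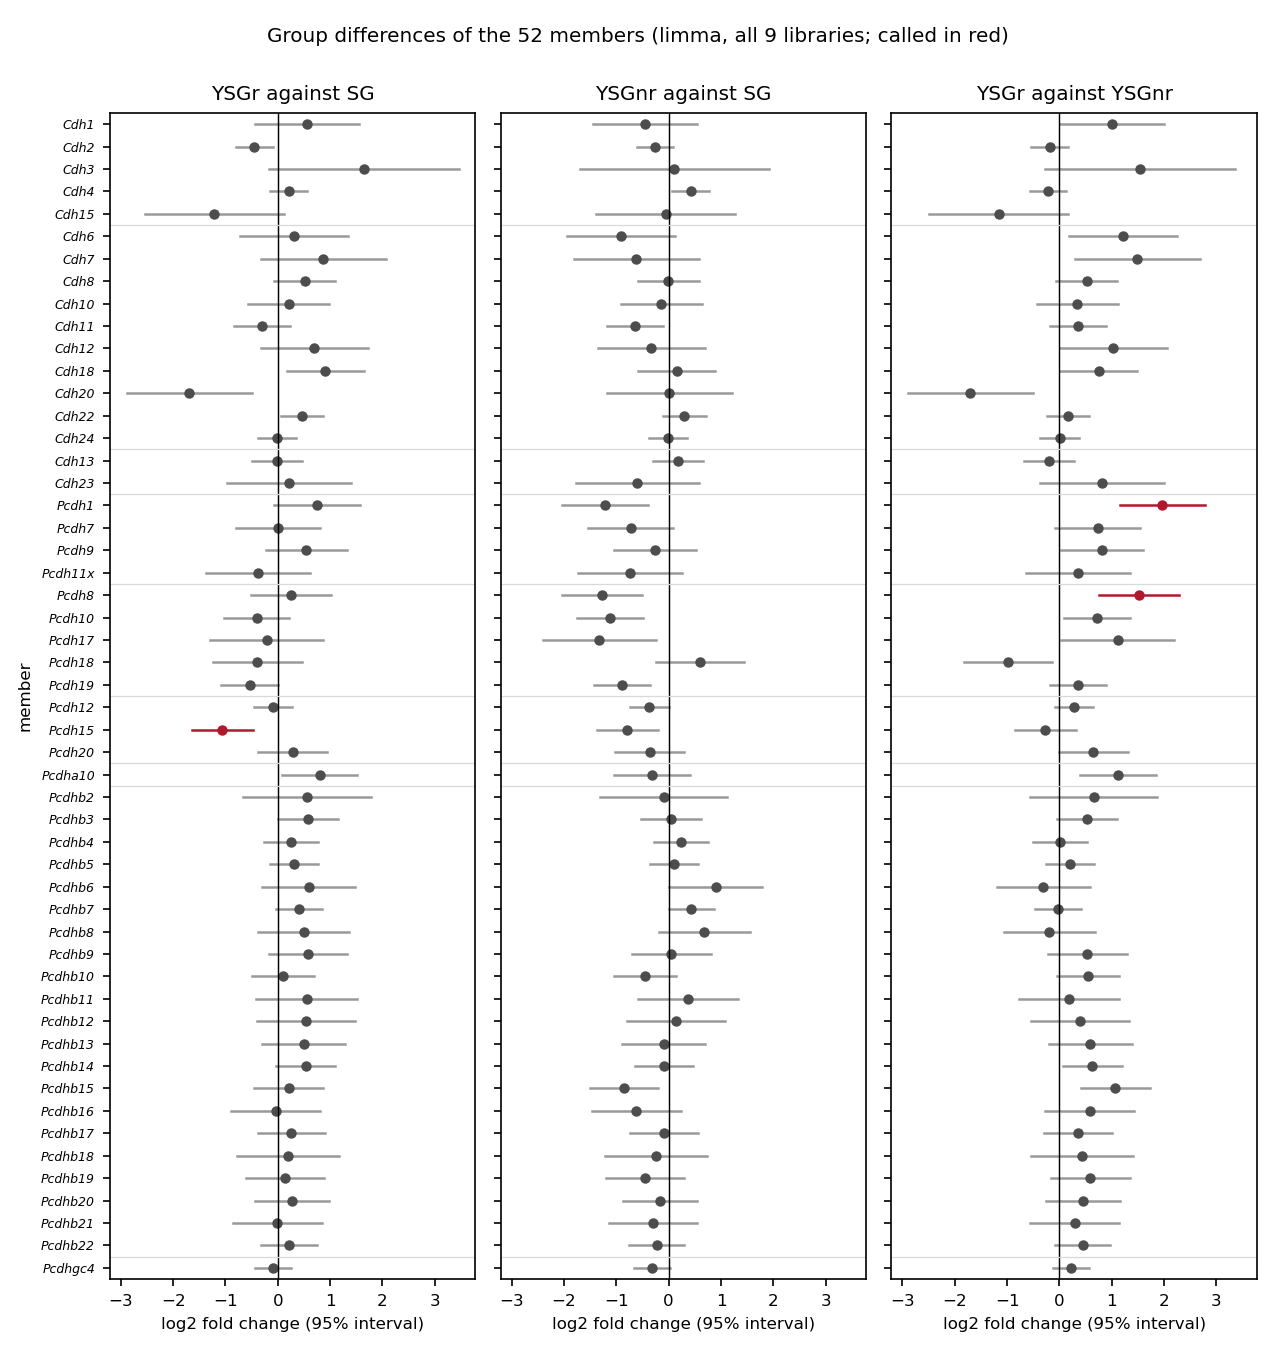
Log2 fold change of each of the 52 members in the 3 comparisons (horizontal axis, points, with unadjusted 95% intervals as lines), from limma on all 9 libraries, ordered by subgroup. Called members are red: Pcdh15 at -1.06 in YSGr against SG, and Pcdh1 at 1.97 and Pcdh8 at 1.52 in YSGr against YSGnr.

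Pcdh1 and Pcdh8 are delta protocadherins of the delta-1 and delta-2 class. Pcdh1, at chr18:38185914-38212053 on the minus strand, had log2 CPM of 6.51, 6.36 and 5.39 in YSGr, 4.84, 3.48 and 4.03 in YSGnr, and 5.38, 5.31 and 5.31 in SG. Pcdh8, known in rat neurons as arcadlin, a protein induced by activity that draws N-cadherin off the surface, had 3.53, 3.68 and 2.33 in YSGr, 1.40, 1.96 and 1.63 in YSGnr, and 2.99, 2.75 and 3.05 in SG. For both genes YSGr and YSGnr did not overlap, and YSGnr lay below SG in every library. YSGr replicate 3 was close to SG for Pcdh1 and below SG for Pcdh8, while YSGr replicates 1 and 2 were above SG for both. In YSGr against YSGnr the log2 fold change was 1.97 for Pcdh1 (SE 0.36, adjusted p = 0.0302, 3.91-fold higher) and 1.52 for Pcdh8 (SE 0.34, adjusted p = 0.0413, 2.86-fold higher).

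Against SG, neither gene was called: Pcdh1 had log2 fold changes of 0.75 in YSGr (adjusted p = 0.228) and -1.22 in YSGnr (adjusted p = 0.0888), and Pcdh8 of 0.25 (adjusted p = 0.706) and -1.26 (adjusted p = 0.07). The shallow YSGnr replicate 1 held 10 reads of Pcdh8, against 63 and 92 in the other YSGnr libraries. Both calls in YSGr against YSGnr were lost in the 7 fits that left out a library other than YSGr replicate 3 or YSGnr replicate 1: without SG replicates 1, 2 and 3 the adjusted p was 0.0681, 0.0661 and 0.0671 for Pcdh1 and 0.0807, 0.0774 and 0.081 for Pcdh8. Without YSGr replicates 1 and 2 it was 0.154 and 0.151 for Pcdh1 and 0.188 and 0.182 for Pcdh8. Without YSGnr replicates 2 and 3 it was 0.102 and 0.109 for Pcdh1 and 0.105 and 0.129 for Pcdh8. Without YSGr replicate 3 the log2 fold changes were 2.32 and 1.94 (adjusted p = 0.00107 and 0.000501), and without YSGnr replicate 1 they were 2.33 and 1.38 (adjusted p = 0.0108 and 0.0325). With the trend of length and GC content removed, Pcdh1 kept its call at 1.52 (adjusted p = 0.031) and Pcdh8 did not, at 1.19 (adjusted p = 0.0516). Fitted on the 6 YSGr and YSGnr libraries alone, neither was called (adjusted p = 0.154 for Pcdh1 and 0.161 for Pcdh8), and with median scaling Pcdh8 was not (adjusted p = 0.0529).

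**Figure D3:**
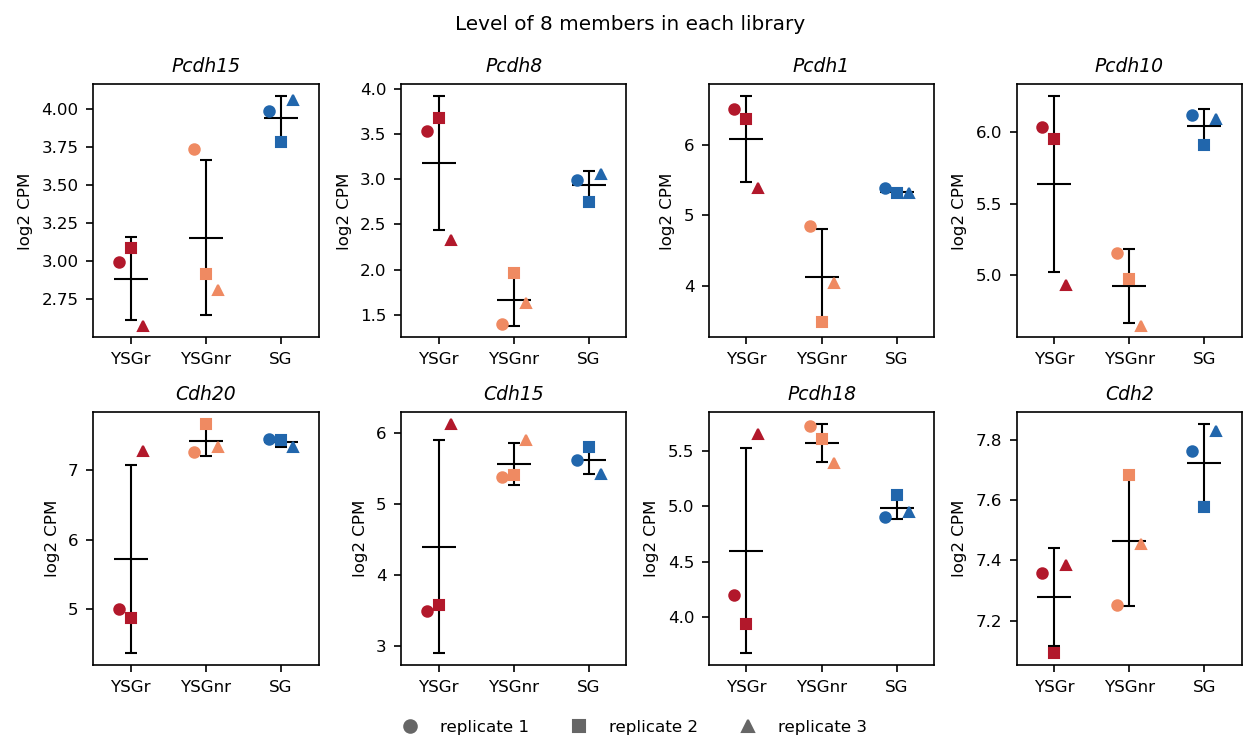
Log2 CPM (vertical axis, own range in each panel) of 8 members in the YSGr, YSGnr and SG libraries, with each point a library, its shape the replicate, and black bars the mean and SD of 3 libraries. Pcdh8 and Pcdh1 are higher in all YSGr than in all YSGnr libraries, Pcdh15 is highest in SG, and Cdh20 and Cdh15 are low only in YSGr replicates 1 and 2 while YSGr replicate 3 lies with the other groups.

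Cdh20, Cdh15 and Pcdh18 had low values in YSGr replicates 1 and 2 and not in YSGr replicate 3. Cdh20, a type II cadherin, had log2 CPM of 5.0, 4.87 and 7.28 in YSGr, 7.26, 7.67 and 7.34 in YSGnr, and 7.46, 7.44 and 7.33 in SG. Cdh15, called M-cadherin from its part in muscle and also known from cerebellar granule cells, had 3.49, 3.58 and 6.12 in YSGr, 5.37, 5.40 and 5.90 in YSGnr, and 5.62, 5.80 and 5.41 in SG. Pcdh18, a delta-2 protocadherin whose mouse protein binds the adaptor Dab1, had 4.20, 3.93 and 5.66 in YSGr, 5.73, 5.61 and 5.39 in YSGnr, and 4.91, 5.10 and 4.95 in SG. For each of them YSGr replicates 1 and 2 were the lowest of the 9 libraries, and YSGr replicate 3 was near or above the SG libraries. With all libraries the log2 fold changes in YSGr against SG were -1.69 for Cdh20 (SE 0.53, adjusted p = 0.0742), -1.21 for Cdh15 (SE 0.59, adjusted p = 0.232) and -0.39 for Pcdh18 (SE 0.37, adjusted p = 0.573), and none was called. In YSGnr against SG they were 0.01, -0.05 and 0.59.

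Without YSGr replicate 3, 14 members were called in YSGr against SG, 9 higher and 5 lower, beside 14.4% of all genes called higher and 13.5% called lower. The lower members were Cdh20 (-2.47, SE 0.14, adjusted p = 3.67e-05), Cdh15 (-2.08, SE 0.19, adjusted p = 0.000225), Pcdh18 (-0.92, SE 0.15, adjusted p = 0.00265), Pcdh15 and N-cadherin Cdh2 (-0.50, SE 0.16, adjusted p = 0.0494). The higher members were Pcdha10, Pcdh1, Pcdh8, Pcdhb9, Pcdhb14, the type II cadherins Cdh8, Cdh12 and Cdh18, and P-cadherin Cdh3. In YSGnr against SG the same fit, which then had a smaller estimate of the spread, called 1 member higher, Pcdh18 (0.59, adjusted p = 0.0235), beside 6.94% of all genes, and 6 lower, beside 10.3%. The 6 were Pcdh1, Pcdh8, Pcdh10, Pcdh17, Pcdh19 and Cdh11. In YSGr against YSGnr it called 26 higher and 3 lower, beside 22.2% and 20.6% of all genes, and the 3 lower were Cdh20, Cdh15 and Pcdh18. No label gives a reason to leave the library out, and the share of members called lower was below that of all genes in YSGr against YSGnr, while the share called higher was above it.

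Leaving out both YSGr replicate 3 and YSGnr replicate 1 gave 24 members higher and 5 lower in YSGr against SG, beside 23.5% and 26.1% of all genes. It gave 3 higher and 21 lower in YSGnr against SG, beside 26.6% and 26.3%, and 35 higher and 5 lower in YSGr against YSGnr, beside 32% and 32.7%. All 4 delta-1 protocadherins were then higher in YSGr than in YSGnr and lower in YSGnr than in SG. The 3 members higher in YSGnr than in SG were Cdh4 (R-cadherin, 0.57), Pcdh18 (0.52) and Pcdhb7 (0.55). Leaving out YSGnr replicate 1 alone, which leaves YSGnr and SG libraries that are alike in Xist, gave 7 calls in YSGnr against SG: Cdh4 was higher, and Pcdh1 (-1.58, adjusted p = 0.0171), Pcdh17 (-1.77, adjusted p = 0.0316), Pcdh10, Pcdh15, Pcdh19 and Cdh11 were lower, beside 10.6% of all genes called higher and 11.3% called lower. In YSGr against YSGnr that fit called 9 members, all higher, beside 16.8% of all genes higher and 14.2% lower. The YSGr libraries were high in Xist and the YSGnr libraries kept in that fit were low. YSGr against YSGnr, in this fit and with both libraries left out, thus cannot be told apart from the Xist split.

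**Figure D4:**
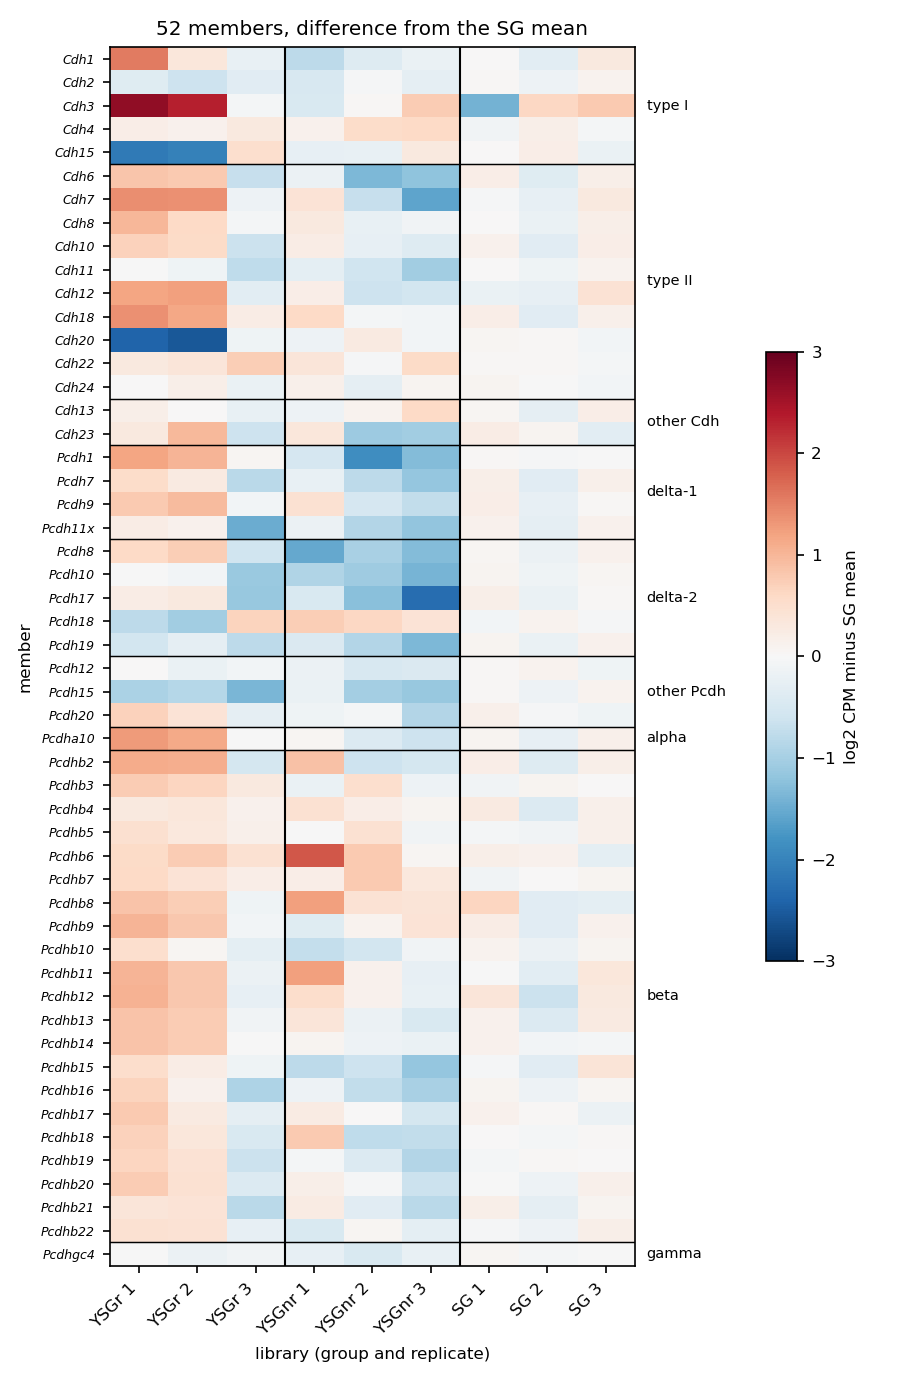
Log2 CPM minus the SG mean for the 52 members (rows, by subgroup) in 9 libraries (columns). YSGr replicates 1 and 2 show mostly higher values (40 and 37 members above all SG libraries) with Cdh20 and Cdh15 strongly lower, YSGr replicate 3 lies below all SG libraries for 26 members, and YSGnr replicates 2 and 3 for 29 and 33.

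Counted by library, YSGr replicates 1, 2 and 3 lay above all SG libraries for 40, 37 and 9 of 52 members and below them for 6, 8 and 26. Of all tested genes, 40.2%, 38.5% and 44.2% lay above and 42.2%, 44.8% and 36.5% below in these libraries. YSGnr replicates 1, 2 and 3 lay above for 21, 7 and 8 members and below for 20, 29 and 33, beside 35.4%, 41.2% and 41.9% of all genes above and 44%, 41% and 42.8% below. YSGr replicate 3 was thus nearer to the YSGnr libraries than to its own group in this count. The median SD within a group was 0.59 in YSGr, 0.39 in YSGnr and 0.18 in SG on the log2 CPM scale. Transcript length moved with the same libraries. Across all genes, Spearman's rho between transcript length and the difference from the SG mean was 0.15, 0.13 and -0.41 in the YSGr libraries and -0.07, -0.52 and -0.50 in the YSGnr libraries, given as a description over 14633 genes. The members' median transcript was longer than that of all tested genes, with 4683 against 3363 bases. With the trend of length and GC content removed, the members' median log2 fold change in YSGnr against SG was -0.03 against 0.04 over all genes, in YSGr against SG 0.31, and in YSGr against YSGnr 0.26. The members called were then 2 (Pcdh15 lower, Pcdhb14 higher) in YSGr against SG, beside 13.4% of all genes, 0 in YSGnr against SG, beside 5.15%, and 3 in YSGr against YSGnr, beside 12%, where Pcdh1 and Pcdhb15 were higher and Pcdh15 was lower at -0.69 (adjusted p = 0.0356).

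Among the 5 type I cadherins, N-cadherin Cdh2, the main neuronal classical cadherin, had log2 CPM of 7.36, 7.09 and 7.39 in YSGr, 7.25, 7.68 and 7.46 in YSGnr, and 7.76, 7.58 and 7.83 in SG. YSGr lay below SG in all libraries, by -0.45 (SE 0.16, adjusted p = 0.105), which was not called. R-cadherin Cdh4 had 6.14, 6.05 and 6.21 in YSGr, 6.05, 6.48 and 6.52 in YSGnr, and 5.83, 6.09 and 5.86 in SG, with a log2 fold change of 0.42 in YSGnr against SG (SE 0.16, adjusted p = 0.139). P-cadherin Cdh3 was at 2.37, 2.05 and -0.34 in YSGr, -0.74, -0.26 and 0.46 in YSGnr, and -1.70, 0.32 and 0.51 in SG. These are few reads, with 149, 109 and 16 in YSGr, 2, 18 and 27 in YSGnr, and 4, 32 and 43 in SG, and the spread within SG alone was 1.22 (SD).

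The 10 type II cadherins gave 0 calls in any comparison with all libraries. Of all tested genes, 10.5% were called in YSGr against SG, 3.36% in YSGnr against SG and 5.97% in YSGr against YSGnr. Of the 10, 7 had a positive log2 fold change in YSGr against SG, beside 47.7% of all genes. In YSGr against YSGnr it was 9 of 10, beside 50.5%. Cdh18 had log2 CPM of 3.98, 3.77 and 2.83 in YSGr, 3.21, 2.57 and 2.53 in YSGnr, and 2.81, 2.26 and 2.77 in SG. The YSGr libraries all lay above SG, the third of them by little, and the log2 fold change was 0.91 (SE 0.33, adjusted p = 0.114). Cdh22 had 5.73, 5.79 and 6.16 in YSGr, 5.79, 5.40 and 6.01 in YSGnr, and 5.46, 5.45 and 5.37 in SG, a difference of 0.47 in YSGr against SG (adjusted p = 0.139). Cdh8 had 6.17, 5.77 and 5.12 in YSGr, 5.48, 4.95 and 5.07 in YSGnr, and 5.19, 4.98 and 5.36 in SG, with YSGr replicates 1 and 2 above the other 7 libraries. Cdh7 ranged more widely, with 4.87, 4.84 and 3.33 in YSGr, 3.90, 2.79 and 1.90 in YSGnr, and 3.43, 3.22 and 3.78 in SG. Of the remaining cadherins, the GPI-anchored T-cadherin Cdh13 had log2 fold changes of -0.01 in YSGr (95% interval -0.49 to 0.47) and 0.18 in YSGnr against SG.

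Most of the 9 delta protocadherins had lower values in YSGnr than in SG, without a call. In YSGnr against SG all 4 delta-1 members and 4 of 5 delta-2 members had negative log2 fold changes. Their medians were -0.73 and -1.12, against -0.01 over all genes. Pcdh10 and Pcdh17, delta-2 protocadherins that recruit the actin-regulating WAVE complex, were among them. Pcdh10 had log2 CPM of 6.04, 5.95 and 4.93 in YSGr, 5.15, 4.97 and 4.64 in YSGnr, and 6.13, 5.91 and 6.10 in SG. Its YSGnr libraries lay below SG and its YSGr libraries were split, with log2 fold changes of -1.12 in YSGnr (SE 0.28, adjusted p = 0.0592) and -0.40 in YSGr. Pcdh17 had 5.75, 5.81 and 4.38 in YSGr, 5.08, 4.27 and 3.25 in YSGnr, and 5.70, 5.33 and 5.55 in SG, and -1.33 in YSGnr against SG (SE 0.48, adjusted p = 0.133). Pcdh10, Pcdh17 and Pcdh19 have long transcripts (8234, 11451 and 10289 bases, against a median of 3363 over all tested genes). In YSGnr replicates 2 and 3, longer transcripts had lower values against the SG mean over all genes (rho -0.52 and -0.50). Across all fits Pcdh10, Pcdh17 and Pcdh19 ran from -1.24 to -0.59, -1.77 to -0.76 and -1.12 to -0.38 in YSGnr against SG. Their weakest values came from fits with the length and GC trend removed. With that trend removed and all libraries kept, Pcdh1 and Pcdh8 were at -1.0 and -1.16, against -1.22 and -1.26 without its removal. The part of length was not tested. Among the delta-1 members, Pcdh9 had 5.94, 6.11 and 5.06 in YSGr, 5.61, 4.66 and 4.41 in YSGnr, and 5.36, 4.91 and 5.19 in SG. Pcdh7 had 5.89, 5.62 and 4.53 in YSGr, 5.12, 4.55 and 4.18 in YSGnr, and 5.51, 5.02 and 5.51 in SG. For both, YSGr replicates 1 and 2 were the highest libraries and YSGnr replicate 3 the lowest. The delta-1 members summed to 226, 214 and 103 CPM in YSGr, 123, 66.4 and 61.0 CPM in YSGnr, and 142, 112 and 135 CPM in SG.

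Of the X-linked members, Pcdh19, which causes an epilepsy of human females when mutated, had log2 CPM of 3.90, 4.18 and 3.67 in YSGr, 4.02, 3.57 and 3.11 in YSGnr, and 4.54, 4.25 and 4.58 in SG. Both YSGr and YSGnr lay below SG in every library, with log2 fold changes of -0.54 (adjusted p = 0.195) and -0.89 (adjusted p = 0.071). Pcdh11x had 3.90, 3.79 and 2.17 in YSGr, 3.50, 2.79 and 2.5 in YSGnr, and 3.79, 3.41 and 3.81 in SG. For Pcdh19 the 4 libraries high in Xist were below all SG libraries, and for Pcdh11x they ranged from 2.17 to 3.90, against 2.5 to 3.81 in the other 5. Pcdh12, an endothelial protocadherin, had log2 fold changes of -0.09 in YSGr and -0.37 in YSGnr against SG, and was not called. Pcdh20 had log2 CPM of 3.79, 3.50 and 2.82 in YSGr, 2.95, 3.02 and 2.20 in YSGnr, and 3.25, 3.05 and 2.96 in SG. The 10 endothelial markers summed to 252 to 281 CPM in YSGr, 160 to 220 CPM in YSGnr and 268 to 298 CPM in SG, and their part in the Pcdh12 values was not tested.

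The RefSeq start regions of 4 members follow, the called Pcdh15 and Pcdh8, and Cdh20 and Cdh15, which were furthest below SG in YSGr replicates 1 and 2. Each is 250 bases before to 50 after the RefSeq start, in GRCm38.p6, the patch release of the authors' mm10 build, and on the gene's strand. Capitals mark any match on either strand to CATTCC, which TEAD factors, the DNA-binding partners of Yap1, recognise, to GACCACCCA, a consensus of the Hedgehog effectors Gli, or to CAGCTG, an E-box bound by neuronal basic helix-loop-helix factors. Pcdh15 is at chr10:73821617-73821916 (plus strand), inside the GENCODE gene and downstream of its first start, and Cdh15 at chr8:122848124-122848423 (plus strand) likewise lies downstream of its GENCODE start. Pcdh8 is at chr14:79771263-79771562 (minus strand) and Cdh20 at chr1:104768270-104768569 (plus strand).
Pcdh15: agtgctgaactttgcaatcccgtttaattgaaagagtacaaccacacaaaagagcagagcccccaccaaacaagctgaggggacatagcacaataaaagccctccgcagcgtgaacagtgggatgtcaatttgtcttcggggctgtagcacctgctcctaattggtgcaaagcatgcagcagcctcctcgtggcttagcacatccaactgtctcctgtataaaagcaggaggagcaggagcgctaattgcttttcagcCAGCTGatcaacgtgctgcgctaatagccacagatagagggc
Pcdh8: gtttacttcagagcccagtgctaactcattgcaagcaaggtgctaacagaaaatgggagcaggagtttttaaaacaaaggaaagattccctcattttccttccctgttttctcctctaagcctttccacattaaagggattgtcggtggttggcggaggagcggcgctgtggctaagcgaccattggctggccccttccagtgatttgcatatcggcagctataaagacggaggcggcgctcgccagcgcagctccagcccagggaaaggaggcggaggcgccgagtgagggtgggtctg
Cdh20: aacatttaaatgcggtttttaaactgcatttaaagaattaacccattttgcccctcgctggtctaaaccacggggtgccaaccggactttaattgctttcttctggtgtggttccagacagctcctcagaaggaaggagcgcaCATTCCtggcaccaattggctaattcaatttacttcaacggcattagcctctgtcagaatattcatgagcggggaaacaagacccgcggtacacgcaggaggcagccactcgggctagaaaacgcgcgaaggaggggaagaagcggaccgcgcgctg
Cdh15: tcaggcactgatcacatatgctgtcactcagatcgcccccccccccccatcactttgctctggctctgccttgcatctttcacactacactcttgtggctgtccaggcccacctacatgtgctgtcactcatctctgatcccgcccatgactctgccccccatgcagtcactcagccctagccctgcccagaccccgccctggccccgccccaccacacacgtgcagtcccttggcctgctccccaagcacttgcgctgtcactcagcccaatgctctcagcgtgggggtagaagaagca

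In these windows the TEAD letters occur in Cdh20, at position -107 from the start, and the E-box letters in Pcdh15, at position 8. Pcdh8 and Cdh15 hold none of the 3 motifs. Of 32851 mouse windows of that length, 14.7% hold CATTCC, 16.3% hold CAGCTG and 0.253% hold GACCACCCA. Windows were in the table for 20 of 52 members, 23 in all, and 8.7% of them hold CATTCC (Cdh10 and Cdh20), 8.7% hold CAGCTG (Cdh12 and Pcdh15) and none holds GACCACCCA. A match describes the letters in a window and says nothing of binding.

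The clustered protocadherins lie on chromosome 18, where the 21 beta members span 229.7 kb (chr18:37294812-37524479, GENCODE M21). Each beta gene is a single exon close in sequence to its neighbours, and Pcdhb21 and Pcdhb22 overlap in the annotation, so how reads were shared among them is uncertain. All 21 beta members lay above every SG library in YSGr replicate 1 and 19 of 21 in YSGr replicate 2, and 3 of 21 in YSGr replicate 3. In YSGnr replicates 1, 2 and 3 it was 12, 4 and 2 of 21. The shares of all tested genes above every SG library were 40.2%, 38.5% and 44.2% in these YSGr libraries and 35.4%, 41.2% and 41.9% in these YSGnr libraries. The beta members summed to 181, 154 and 94.5 CPM in YSGr, 136, 112 and 88.2 CPM in YSGnr, and 117, 102 and 118 CPM in SG. The beta gene with the highest log2 CPM, Pcdhb17, had 4.29, 3.78 and 3.22 in YSGr, 3.74, 3.52 and 2.97 in YSGnr, and 3.63, 3.55 and 3.34 in SG. Pcdhb7, the highest per length, had 3.73, 3.53 and 3.32 in YSGr, 3.33, 3.90 and 3.44 in YSGnr, and 3.02, 3.14 and 3.20 in SG, with all YSGr and all YSGnr libraries above SG. None of the 21 was called in a comparison with all libraries. The shares of all tested genes called were 10.5% in YSGr against SG, 3.36% in YSGnr against SG and 5.97% in YSGr against YSGnr. The median log2 fold change over the 21 was 0.31 in YSGr against SG, -0.09 in YSGnr against SG and 0.44 in YSGr against YSGnr. Without YSGr replicate 3 they gave 2 calls in YSGr against SG (Pcdhb9 0.91 and Pcdhb14 0.81, adjusted p = 0.0421 and 0.0138) and 8 in YSGr against YSGnr, all higher, beside 14.4% and 22.2% of all genes called higher. Pcdhb15 had the lowest adjusted p of the cluster in YSGr against YSGnr with all libraries, at 1.06 (SE 0.29, adjusted p = 0.0592), with 2.06, 1.76 and 1.41 log2 CPM in YSGr, 0.76, 0.92 and 0.36 in YSGnr, and 1.49, 1.18 and 1.92 in SG.

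**Figure D5:**
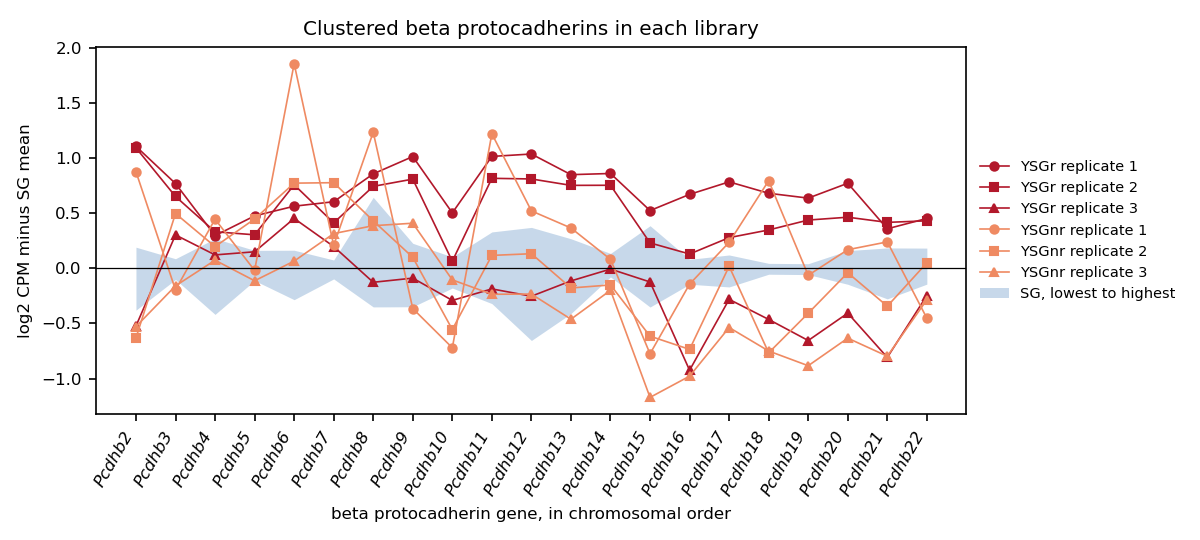
Log2 CPM minus the SG mean (vertical axis) of the 21 beta protocadherins in chromosomal order, with a line for each YSGr and YSGnr library and a band for the range of the 3 SG libraries. YSGr replicates 1 and 2 run above the band for 21 and 19 genes, and YSGr replicate 3 runs with the YSGnr libraries along much of the cluster.

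The alpha row Pcdha10 had log2 CPM of 7.50, 7.37 and 6.23 in YSGr, 6.29, 5.83 and 5.61 in YSGnr, and 6.32, 6.0 and 6.38 in SG. YSGr replicates 1 and 2 were above every other library and YSGr replicate 3 lay within SG, giving 0.80 in YSGr against SG (SE 0.32, adjusted p = 0.153) and 1.12 in YSGr against YSGnr (adjusted p = 0.065). The gamma row Pcdhgc4 had log2 CPM of 9.70, 9.53 and 9.60 in YSGr, 9.45, 9.24 and 9.48 in YSGnr, and 9.77, 9.64 and 9.69 in SG. Its difference in YSGr against SG was -0.09, with a 95% interval of -0.44 to 0.25. Cell type markers also differed between the libraries. Of all tested genes, 6.58% were called higher and 3.97% lower in YSGr against SG, and 1.19% and 2.17% in YSGnr against SG. In YSGr against YSGnr, 5.09% were called higher and 0.879% lower. The 12 markers of mature granule neurons summed to 2130, 2103 and 1140 CPM in YSGr, 909, 559 and 722 CPM in YSGnr, and 554, 512 and 650 CPM in SG, and 9 of 12 were called higher in YSGr than in SG, 5 in YSGnr than in SG and 9 in YSGr than in YSGnr. Of the 10 proliferation markers, 4 were called lower in YSGr than in SG, with sums of 1332, 1037 and 2022 CPM in YSGr, 2359, 2522 and 2536 CPM in YSGnr, and 2541, 2520 and 2543 CPM in SG. The 10 Purkinje cell markers summed to 2526, 2576 and 1503 CPM in YSGr, 1163, 794 and 631 CPM in YSGnr, and 1071, 963 and 1051 CPM in SG. Of them 4 were called higher and 1 lower in YSGr than in SG, 2 higher in YSGnr than in SG, and 7 higher in YSGr than in YSGnr. The 8 interneuron markers summed to 322 to 467 CPM in YSGr, 151 to 211 CPM in YSGnr and 205 to 213 CPM in SG, with 3 called higher in YSGr than in SG and 5 in YSGr than in YSGnr. The 12 oligodendrocyte and myelin markers summed to 2678, 4046 and 2995 CPM in YSGr, 1381 to 2438 CPM in YSGnr and 1126 to 1726 CPM in SG. Of them 7 were called higher and 3 lower in YSGr than in SG, 2 higher in YSGnr than in SG, and 1 lower in YSGr than in YSGnr. The 6 unipolar brush cell markers summed to 191 to 386 CPM in YSGr, 122 to 164 CPM in YSGnr and 157 to 180 CPM in SG, with 2 called higher in YSGr than in SG and 2 in YSGr than in YSGnr. The 8 neural stem cell markers summed to 506 to 829 CPM in YSGr, 572 to 839 CPM in YSGnr and 1071 to 1140 CPM in SG, with 3 called lower in YSGr and 4 in YSGnr than in SG. The part of any of these cell types in the members' values was not tested.

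Genes that work with the family were read from lists chosen for their roles. With all libraries, every list stands beside 6.58% of all genes called higher and 3.97% lower in YSGr against SG. The shares were 1.19% and 2.17% in YSGnr against SG, and 5.09% and 0.879% in YSGr against YSGnr. Of 11 catenins and related armadillo proteins, which tie classical cadherins to the cytoskeleton, Jup (plakoglobin, 0.78, adjusted p = 0.016) and Pkp4 (0.73, adjusted p = 0.0294) were higher and Ctnna1 (alpha-catenin, -0.60, adjusted p = 0.0363) was lower in YSGr than in SG, none of the 11 was called in YSGnr against SG, and Jup and Pkp4 were higher in YSGr than in YSGnr (0.85 and 0.82). Of 14 tested atypical cadherins and calsyntenins, the synaptic calsyntenin Clstn3 was higher (1.21, adjusted p = 0.00594), and Cdhr1 (-1.74), the desmosomal Dsc2 (-1.52) and the planar polarity cadherin Celsr1 (-1.04) were lower in YSGr than in SG. Celsr1 was also lower in YSGnr than in SG (-1.55, adjusted p = 0.0207), and Clstn2 (1.52) and Clstn3 (1.07) were higher in YSGr than in YSGnr.

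Among 15 junction partners, the polarity protein Pard3 (-0.79), vinculin Vcl (-0.59) and the scaffold Tjp1 (-0.57) were lower in YSGr than in SG, and Vcl (-0.93) and Tjp1 (-0.77) were lower and Pard6a (1.06) was higher in YSGnr than in SG. None of the 15 was called in YSGr against YSGnr. Of 4 tested transcription factors of epithelial-mesenchymal transition, repressors of E-cadherin, Zeb1 was lower in YSGr than in SG (-1.43, SE 0.25, adjusted p = 0.0115), and none was called in the other comparisons. Of 14 genes that act on the clustered protocadherin loci or their chromatin, the cohesin subunits Stag2 (-0.69) and Rad21 (-0.60), the cohesin release factor Wapal (-0.66), the DNA methyltransferase Dnmt1 (-0.66) and the silencing factor Smchd1 (-0.56) were lower in YSGr than in SG, none was called in YSGnr against SG, and Dnmt3a was higher in YSGr than in YSGnr (0.83, adjusted p = 0.0398). Of 14 WAVE complex genes and protocadherin effectors, Wasf2 was lower in YSGr and in YSGnr than in SG (-1.0 and -0.99), and Dab1 (1.31) and Wasf1 (1.11) were higher in YSGr than in YSGnr. Of 10 genes of cadherin processing, the gamma-secretase subunit Aph1b was higher in YSGr than in SG (0.84, adjusted p = 0.0269), and none was called in the other comparisons. Without YSGr replicate 3, YSGr against SG gave 3 higher and 3 lower of the 11 catenins and related proteins, and likewise 3 and 3 of the 14 atypical cadherins and calsyntenins, beside 14.4% of all genes called higher and 13.5% called lower. It gave 1 higher and 4 lower of the 15 junction partners, 0 and 1 of the 4 transcription factors, 0 and 7 of the 14 genes acting on the clustered loci, 2 and 2 of the 14 WAVE genes and effectors, and 1 and 0 of the 10 processing genes. The difference between the effects against SG in YSGr and in YSGnr is the YSGr against YSGnr comparison. Other differences in these calls between comparisons were not tested.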

How the data were processed

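The authors deposited 1 table of log2 CPM for 17482 genes in 9 libraries. Per the labels' protocols, RNA was isolated with a Trizol-type method and BGI prepared and sequenced the libraries on DNBseq. The submitters' processing notes name Trimmomatic, RSEM, Bowtie2, Picard, edgeR and mm10, without versions. For strandedness and the annotation version, no value is given in the sources used here. The deposited log2 values carry an added count, so fold changes understate low genes, and every library shares the lowest value of -3.52. Depth was worked back from the low values, of which 59.4% to 69.5% were whole to within 0.02 reads, so no count test was used.

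Groups were compared with limma 3.58.1 in R 4.3.3 (group means over all 9 libraries, mean-variance trend, two-sided), for 15251 genes with log2 CPM above 0 in at least 3 libraries, and a call needed a Benjamini-Hochberg adjusted p under 0.05. The steps were tested on simulated data in which each gene had the same spread in every group. The members' median SD here was 0.59 in YSGr, 0.39 in YSGnr and 0.18 in SG. That test therefore cannot show how the pooled spread behaves with unequal groups. The members and gene lists were chosen with earlier results of these data known. All members could be named, called ones with full values, along with up to 4 called genes per partner list and comparison. Gene positions and lengths come from GENCODE M21 (longest transcript) and start regions from RefSeq. Length and GC content were known for 95.8% of the 17482 genes, and for 14633 of the 15251 tested. Alternatives changed the filter, the added value, the scaling, the fit and the libraries included.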

Additional observations from a re-analysis of the deposited data

Results flagged for a closer look

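Pcdh1 and Pcdh8 were flagged because their log2 fold changes against SG had opposite signs in YSGr and YSGnr, and the difference between these effects was called. That difference is the YSGr against YSGnr comparison given above, so it is not a further result. For Pcdh1, the log2 fold change against SG was 0.75 in YSGr and -1.22 in YSGnr, and the difference of the effects was 1.97 (SE 0.36, adjusted p = 0.0302, limma). YSGr was higher than YSGnr in every library, and YSGnr lower than SG in every library. For Pcdh8 the log2 fold change against SG was 0.25 in YSGr and -1.26 in YSGnr, and the difference was 1.52 (SE 0.34, adjusted p = 0.0413). YSGr replicate 3 had 2.33 log2 CPM of Pcdh8, below the SG libraries, so the direction against SG was not shared by all YSGr libraries. Neither gene was called against SG in either group, and both calls were lost when any of 7 of the 9 libraries was left out. The spread was pooled over all 9 libraries, and the SD of Pcdh1 was 0.04 in SG, 0.61 in YSGr and 0.69 in YSGnr. Fitted on the 6 YSGr and YSGnr libraries alone, neither gene was called (limma, adjusted p = 0.154 for Pcdh1 and 0.161 for Pcdh8).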

How the results depend on the processing

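With all 9 libraries, 1 of 52 members was called in YSGr against SG (0 higher, 1 lower), 0 in YSGnr against SG and 2 in YSGr against YSGnr (2 higher, 0 lower). No alternative turned the direction of a called member. Array weights, which gave YSGr replicate 3 and YSGnr replicate 1 weights of 0.114 and 0.128, called 36 (30 higher, 6 lower), 22 (3 higher, 19 lower) and 39 (35 higher, 4 lower), beside 56.3%, 46.9% and 61.7% of all genes. Leaving out both of those libraries called 29 (24 higher, 5 lower), 24 (3 higher, 21 lower) and 40 (35 higher, 5 lower), beside 49.5%, 52.9% and 64.7%. With the length and GC trend removed, the counts were 2 (1 higher, 1 lower), 0 and 3 (2 higher, 1 lower), beside 13.4%, 5.15% and 12%. Adding to that the omission of YSGr replicate 3, chosen after seeing the data, gave 21 (15 higher, 6 lower), 5 (2 higher, 3 lower) and 27 (21 higher, 6 lower), beside 35.5%, 18.3% and 44.1%, and the omission of YSGnr replicate 1, likewise chosen after seeing the data, 4 (2 higher, 2 lower), 3 (2 higher, 1 lower) and 9 (6 higher, 3 lower), beside 18.8%, 14.9% and 28%. The 6 libraries of each comparison alone gave 1, 3 (1 higher, 2 lower) and 0, beside 12.6%, 7.8% and 0% of all genes. In the last, 7 members had an unadjusted p below 0.05. Median scaling called 1 in YSGr against YSGnr, beside 2.07% of all genes. Leaving out 1 library at a time gave 0 to 14 calls in YSGr against SG (0 to 9 higher, 0 to 5 lower), beside 2.15% to 27.9% of all genes. In YSGnr against SG it gave 0 to 7 (0 to 1 higher, 0 to 6 lower), beside 0.125% to 21.8%. In YSGr against YSGnr it gave 0 to 29 (0 to 26 higher, 0 to 3 lower), beside 0.00656% to 42.8%. The upper ends for members came without YSGr replicate 3 and, in YSGnr against SG, also without YSGnr replicate 1. Where a fit had only 2 libraries in a group, these were assumed to vary like the others.

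Replicate numbers are shared between groups, but the correlations of same-numbered libraries' deviations from their group means ran from -0.23 to 0.24, so the numbers were not taken to pair libraries. The replicate block gave 1 call in YSGr against SG, 0 in YSGnr against SG and 2 in YSGr against YSGnr, beside 7.83%, 2.24% and 5.64% of all genes. With the length and GC trend removed as well it gave 1, 0 and 3 (2 higher, 1 lower), beside 10.2%, 2.08% and 10.5%. The cause of the changes in counts was not tested. Low members rest on few reads, with 2 to 149 of Cdh3 in a library.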
